A study of Mus musculus with 121 samples.

Results

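The genes described here are 10 that were chosen as genes of late neutrophil maturation, followed across granulocytic states of single bone marrow cells from mice with a mutated Gfi1. They are Mmp8, Mmp9, Retnlg, Cxcr2, Cxcr4, Padi4, Mcemp1, Fpr1, Fpr2 and Olfm4, taken by symbol from an expression table of 23946 genes in 121 cells. All 10 were in the table. The choice does not make each a late marker here: Mmp8, Cxcr2 and Cxcr4 were also detected in most cells outside the granulocytic states. The values are log2(TPM + 1), where TPM is a relative transcript abundance that corrects for transcript length and sums to the same total in every cell. The series addresses how a Gfi1 mutation linked to neutropenia acts along the states of granulocyte specification. Gfi1 is a transcriptional repressor needed for neutrophil formation. All cells came from C57BL/6 mice carrying the R412X allele, which the labels write as Gfi1-R412X/- and as HTZ. Marrow of crushed hindlimbs was enriched for CD117 (Kit), sorted by flow cytometry, and captured singly on the Fluidigm C1 system. The labels give no age and name no animal. Unmutated control cells were not analysed here, and no value below measures an effect of the mutation.

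The 121 cells comprised 46 labelled CD11b+ GMP-P and 75 labelled GMP. GMP usually stands for granulocyte-monocyte progenitor, and CD11b, encoded by Itgam, is an integrin chain of maturing myeloid cells. The authors' deposited state names put 29 cells in Gran states, 14 of them in Gran-1 and 15 in Gran-2. A further 34 cells were in Myelo states, with 5 cells in Myelo-1, 18 in Myelo-2, 1 in Myelo-3 and 10 in Myelo-4. The other 58 cells were in the states Mono (38), cMoP (5), MP (11), MDP (1), HSCP-1 (1) and Multi-Lin (2). The sources used here do not give the method behind the states. Since the states are names given to these same cells, differences of a gene between states describe the annotation and are no independent result. By their run names, CD11b+ GMP-P cells form 1 run dated to late July. So dated are 13 GMP cells (called late July GMP here), under 2 run names: 10 cells, among them all 3 in Gran states, carry a name without a year and 3 Myelo cells a name with one. Whether these and the CD11b+ GMP-P run were captured together was not stated. The other 62 GMP cells have an undated run name (other GMP). Of the 29 Gran cells, 16 were CD11b+ GMP-P, 3 late July GMP and 10 other GMP. Of the 34 Myelo cells, 24 were CD11b+ GMP-P and 10 late July GMP. No other GMP cell was in a Myelo state, so the undated run and the Myelo states cannot be compared. Each population is 1 sample, so no test between groups was possible and no p-value is given. An SD below is the spread over cells and no replicate error. Detection in a cell means 1 TPM or more. Shares of detecting cells carry exact (Clopper-Pearson) 95% intervals, and a share of 0 carries the limit that 3 cells allow. Both cover counting error only.

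Neutrophils fill their granules in order as they mature in the marrow. Primary granules come first, secondary (specific) granules follow, and gelatinase granules are made last, together with receptors that let the mature cell follow chemoattractants. Mmp8 is the neutrophil collagenase, Mmp9 is gelatinase B, and Olfm4 (olfactomedin 4) is a granule glycoprotein found in a subset of neutrophils. Retnlg is a resistin-like secreted protein, Mcemp1 a small membrane protein of myeloid and mast cells, and Padi4 the arginine deiminase that citrullinates histones when neutrophils release extracellular traps. Fpr1 and Fpr2 are receptors for formylated peptides, Cxcr2 is the receptor for chemokines such as Cxcl1 and Cxcl2 that draws neutrophils out of the marrow, and Cxcr4 is the receptor for Cxcl12 that holds them in it.

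The sequences upstream of 5 of the genes are printed. Mmp8, Retnlg, Fpr1 and Fpr2 were all higher in Myelo than in Gran cells, while Cxcr2 had another pattern across the states. Mcemp1 and Padi4 were also higher, but their windows, which held none of the motifs below, are not printed. Mmp9, higher too, had no promoter entry. Each printed sequence is the 250 bases before the annotated start, 5′ to 3′ on the gene's strand, from RefSeq on GRCm38.p6. That build is not the mm9 build named in the submitters' processing notes, and no value of the expression table was placed by these coordinates. Capitals mark matches to 3 short motifs searched on both strands. They are a C/EBP motif TTGCNNAA (reverse TTNNGCAA), a PU.1 motif GAGGAA (reverse TTCCTC) and a Gfi1 motif AATCAC (reverse GTGATT). The windows are chr9:7558179-7558428 (+) for Mmp8, chr16:48872358-48872607 (+) for Retnlg, chr17:17883940-17884189 (-) for Fpr1, chr17:17887574-17887823 (+) for Fpr2 and chr1:74153744-74153993 (+) for Cxcr2.
Mmp8: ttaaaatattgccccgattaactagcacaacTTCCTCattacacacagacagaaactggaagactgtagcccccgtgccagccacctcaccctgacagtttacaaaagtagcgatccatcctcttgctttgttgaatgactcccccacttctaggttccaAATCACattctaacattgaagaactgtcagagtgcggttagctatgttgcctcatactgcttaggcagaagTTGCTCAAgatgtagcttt
Retnlg: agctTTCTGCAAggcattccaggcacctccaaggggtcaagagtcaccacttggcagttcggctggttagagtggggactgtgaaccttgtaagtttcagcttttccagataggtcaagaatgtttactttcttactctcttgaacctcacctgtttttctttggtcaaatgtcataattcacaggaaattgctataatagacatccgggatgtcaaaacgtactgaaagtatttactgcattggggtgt
Fpr1: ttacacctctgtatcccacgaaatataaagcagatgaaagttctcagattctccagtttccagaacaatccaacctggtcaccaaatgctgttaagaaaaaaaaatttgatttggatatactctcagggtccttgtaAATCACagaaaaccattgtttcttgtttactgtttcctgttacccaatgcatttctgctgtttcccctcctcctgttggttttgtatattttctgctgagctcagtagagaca
Fpr2: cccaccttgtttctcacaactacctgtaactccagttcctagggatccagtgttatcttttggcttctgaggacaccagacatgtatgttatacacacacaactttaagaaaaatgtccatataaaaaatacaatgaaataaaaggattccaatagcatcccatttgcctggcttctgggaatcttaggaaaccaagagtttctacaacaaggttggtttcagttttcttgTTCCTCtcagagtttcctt
Cxcr2: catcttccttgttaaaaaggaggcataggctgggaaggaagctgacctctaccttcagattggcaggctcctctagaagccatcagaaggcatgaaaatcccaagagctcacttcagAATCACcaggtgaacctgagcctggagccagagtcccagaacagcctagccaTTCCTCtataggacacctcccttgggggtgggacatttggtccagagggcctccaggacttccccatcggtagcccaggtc
The C/EBP motif stood 19 bases before the start of Mmp8 and 246 bases before that of Retnlg. The Gfi1 motif stood 90 bases before the start of Mmp8, 113 before that of Fpr1 and 133 before that of Cxcr2. The PU.1 motif stood 219 bases before the start of Mmp8, 81 before that of Cxcr2 and 19 before that of Fpr2. Mmp8 held all 3 motifs. Of the 9 genes with a promoter entry, 2 held the C/EBP motif, 4 the PU.1 motif and 3 the Gfi1 motif, the remaining PU.1 match being 79 bases before the start of Olfm4. Of 32851 promoter windows of the same length, 9.56% held the C/EBP motif, 23.3% the PU.1 motif and 9.14% the Gfi1 motif. None of the 3 was found in the windows of Cxcr4 (chr1:128592300-128592549, -), Padi4 (chr4:140774204-140774453, -) and Mcemp1 (chr8:3665512-3665761, +). A match is a run of letters and no measured binding site.

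The state groups differed in complexity. The median number of genes detected per cell was 4090 in Gran (2446 to 5487) and 2070.5 in Myelo (967 to 3810). By state it was 4367 in Gran-1, 3760 in Gran-2, 2448.5 for Myelo-2 and 1685.5 for Myelo-4. A set of 7 granule and S100 genes (Ltf, Camp, Ngp, Lcn2, Chil3, S100a8 and S100a9) made up a median share of 0.962% of all TPM in Gran-1, 12.7% in Gran-2, 26.1% in Myelo-1, 45.4% in Myelo-2 and 52.4% in Myelo-4. Since TPM has a fixed total, a lower TPM of another gene and this larger share cannot be told apart. All 9 neutrophil precursor markers were detected in both groups, with a summed median of 98027 TPM in Gran (27794 to 239534) and 436031 in Myelo (31030 to 532696). Of 8 monocyte markers, all were detected in some Gran cell (summed TPM 0 to 1648, median 113) and 7 in some Myelo cell (0 to 1739, median 2.03), where Cx3cr1 was at 0. The macrophage markers C1qa and C1qb were at 0 in both groups, with 2 of the 4 measured markers detected and a summed TPM of 0 to 1085 in Gran and 0 to 963 in Myelo. Of 4 measured eosinophil markers, 1 was detected in Gran (0 to 13.6) and 2 in Myelo (0 to 2294), where Epx and Ccr3 were at 0. Of 6 basophil and mast cell markers, 4 were detected in Gran (0 to 1185, median 0.89) and 3 in Myelo (0 to 503, median 0). Of 5 erythroid markers, 4 were detected in Gran (0 to 2783, median 0) and 0 in Myelo. Of 5 B lineage markers, 2 were detected in Gran (0 to 729, median 0) and 0 in Myelo. The part of these markers in the results was not tested.

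**Figure D1:**
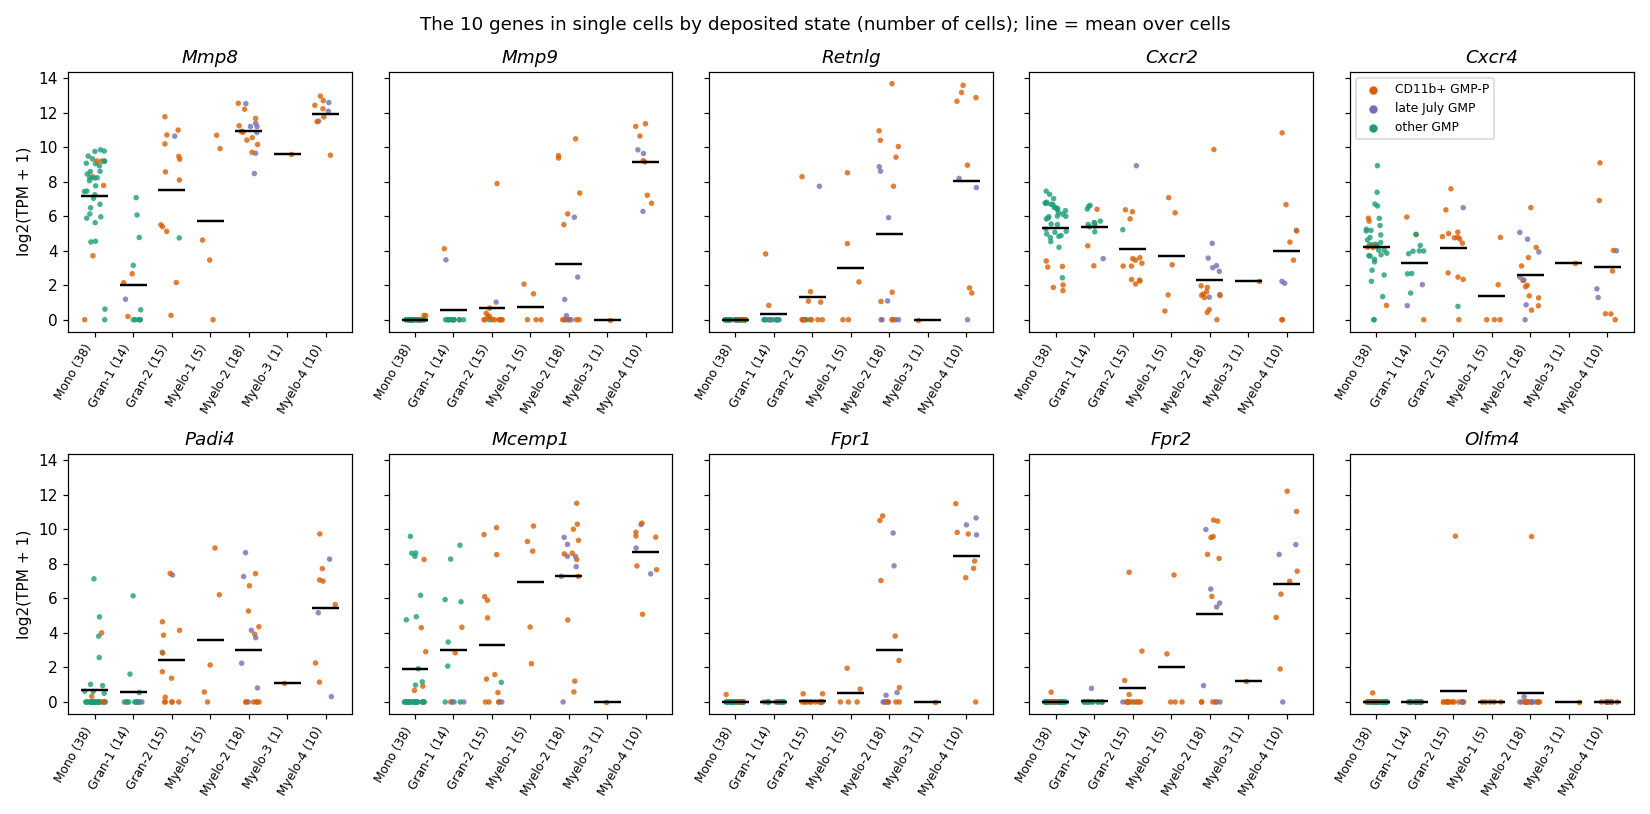
Each panel shows 1 of the 10 genes, with log2(TPM + 1) on the vertical axis and the Mono, Gran and Myelo states (number of cells in parentheses) on the horizontal axis. Points are single cells coloured by population and run, and lines are means over cells: Mmp9 and Fpr1 have means of 9.13 and 8.48 in Myelo-4, whereas Cxcr2 is above 0 in every Gran and Mono cell.

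Of the granule proteins, Mmp8 was the one seen in the most cells. It was detected in 7 of 14 Gran-1 cells (50%, interval 23% to 77%), 14 of 15 Gran-2 cells (93.3%, 68.1% to 99.8%), 4 of 5 Myelo-1 cells, and all 18 Myelo-2 and 10 Myelo-4 cells. Levels of log2(TPM + 1) had a lowest, median and highest value of 0.00, 0.88 and 7.08 in Gran-1, 0.25, 8.57 and 11.76 in Gran-2, 8.47, 10.91 and 12.54 in Myelo-2, then 9.54, 12.15 and 12.96 in Myelo-4. Every Myelo-2 and Myelo-4 cell was thus above every Gran-1 cell, while Gran-2 cells spanned nearly the whole range. The mean level was 1.99 ± 2.45 (SD, n = 14 cells) in Gran-1, 7.53 ± 3.48 (n = 15) in Gran-2, 10.91 ± 1.03 (n = 18) for Myelo-2 and 11.93 ± 0.98 (n = 10) for Myelo-4. The means of Myelo-2 and Myelo-4 differed by 1.01, about the SD of each, and their cells overlapped. The 5 Myelo-1 cells were at 0.00, 3.46, 4.62, 9.92 and 10.69, split between low and high cells.

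Mmp8 was not restricted to granulocytic states. It was detected in 35 of 38 Mono cells, 5 of 5 cMoP cells and 7 of 11 MP cells. Its mean was 7.20 ± 2.59 (SD) in Mono, close to the 7.53 of Gran-2 and above the 1.99 of Gran-1. Mono cells of both runs held it, with a mean of 6.36 ± 3.72 in 6 CD11b+ GMP-P cells and 7.35 ± 2.37 in 32 other GMP cells. The highest Mono cell stood at 9.85, below the median of 10.91 in Myelo-2.

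Mmp9, the gelatinase after which the last granules are named, was seen in far fewer Gran cells than Mmp8. It was detected in 2 of 14 Gran-1 cells (14.3%, interval 1.78% to 42.8%), 2 of 15 Gran-2 cells (13.3%, 1.66% to 40.5%), 2 of 5 Myelo-1 cells, 9 of 18 Myelo-2 cells (50%, 26% to 74%) and 10 of 10 Myelo-4 cells (69.2% to 100%). The 10 Myelo-4 cells had log2(TPM + 1) levels of 6.28, 6.75, 7.21, 9.15, 9.22, 9.63, 9.85, 10.65, 11.20 and 11.36. In Myelo-2 the lowest, median and highest levels were 0.00, 0.71 and 10.48, and the 9 detecting cells ran from 1.26 to 1431 TPM. Of these, 4 were at 100 TPM or more, all of them CD11b+ GMP-P cells. In Gran-1 and Gran-2 the highest cells were at 4.11 and 7.89 and the medians were 0.00. Mean levels were 0.54 ± 1.38, 0.69 ± 2.01, 3.23 ± 3.95 and 9.13 ± 1.82 (SD over cells) in Gran-1, Gran-2, Myelo-2 and Myelo-4. Outside the Gran and Myelo states no cell detected Mmp9 (0 of 58, which allows a share of up to 5.17%).

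Olfm4 was detected in 2 of the 121 cells, at 781 TPM in a Gran-2 cell and 770 TPM in a Myelo-2 cell, both CD11b+ GMP-P. Their log2(TPM + 1) levels were 9.61 and 9.59. The Gran-2 cell detected 6 and the Myelo-2 cell 8 of the 10 genes. No Myelo-4 cell detected it (0 of 10, which allows a share of up to 30%). At a share of 1.65% of all cells (interval 0.201% to 5.84%) no difference between states was detectable.

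Retnlg, the resistin-like gene, was detected in 1 of 14 cells of Gran-1, 5 of 15 of Gran-2 (33.3%, interval 11.8% to 61.6%), 3 of 5 Myelo-1 cells, 12 of 18 Myelo-2 cells (66.7%, 41% to 86.7%) and 9 of 10 Myelo-4 cells (90%, 55.5% to 99.7%). No cell of the other states detected it (0 of 58, up to 5.17%). Its levels were uneven: the Myelo-4 cells were at 0.00, 1.55, 1.84, 7.66, 8.19, 8.96, 12.66, 12.87, 13.17 and 13.59 on the log2(TPM + 1) scale. The highest cell of all, at 13.68 or 13131 TPM, was a Myelo-2 cell. Cells of 1 state thus ranged from no transcript to levels above the highest Mmp8 cell (12.96), and the SD over Myelo-4 cells, 5.25 around a mean of 8.05, exceeded that of the other 9 genes there. High cells were CD11b+ GMP-P cells: the highest late July GMP cell in a Myelo state stood at 8.87.

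Mcemp1, the myeloid membrane protein, was present in some Gran cells and in nearly all Myelo cells. It was detected in 8 of 14 Gran-1 cells (57.1%, interval 28.9% to 82.3%), 9 of 15 Gran-2 cells, 5 of 5 Myelo-1 cells, 16 of 18 Myelo-2 cells (88.9%, 65.3% to 98.6%) and 10 of 10 Myelo-4 cells. Mean log2(TPM + 1) levels were 2.99 ± 3.26 (SD over cells) in Gran-1, 3.32 ± 3.83 in Gran-2, 6.96 ± 3.48 in Myelo-1, 7.29 ± 3.40 in Myelo-2 and 8.66 ± 1.65 in Myelo-4. The means of Gran-1 and Gran-2 differed by less than these spreads, and the cells of the 3 Myelo states overlapped. All 3 late July GMP cells in Gran states were at 0.00, whereas 7 of 10 other GMP Gran cells detected it. Among the other states it was detected in 12 of 38 Mono cells (31.6%, 17.5% to 48.7%).

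Padi4, the histone-citrullinating enzyme, was detected in 2 of 14 Gran-1 cells (14.3%, interval 1.78% to 42.8%), 9 of 15 Gran-2 cells (60%, 32.3% to 83.7%), 10 of 18 Myelo-2 cells (55.6%, 30.8% to 78.5%) and 9 of 10 Myelo-4 cells (90%, 55.5% to 99.7%). Its Myelo-4 mean was below those of Mmp8 and Mmp9, with cells that overlapped. The mean log2(TPM + 1) was 0.59 ± 1.66 (SD) in Gran-1, 2.44 ± 2.61 in Gran-2, 3.03 ± 3.09 for Myelo-2 and 5.44 ± 3.19 for Myelo-4, and the highest cell stood at 9.74. Gran-2 and Myelo-2 differed by 0.59, less than the spread of their cells. Padi4 was also detected in 6 of 38 Mono cells, with a mean of 0.70.

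The formyl peptide receptors were seen in 0 (Fpr1) and 3 (Fpr2) of the 29 Gran cells. Fpr1 was detected in no Gran cell (0 of 29, up to 10.3%), in 1 of 5 Myelo-1 cells, in 7 of 18 Myelo-2 cells (38.9%, interval 17.3% to 64.3%) and in 9 of 10 Myelo-4 cells (90%, 55.5% to 99.7%). In the Myelo-4 cells its log2(TPM + 1) was 0.00, 7.20, 7.75, 8.17, 9.69, 9.73, 9.83, 10.27, 10.67 and 11.49. All but 1 of these cells were therefore abundant in Fpr1, with 9 of them at 100 TPM or more. The Myelo-2 cells ran from 0.00 through a median of 0.47 to 10.78, and 5 of 18 reached 100 TPM. The highest Gran cell was at 0.48 and the highest cell of the other states at 0.43, both under the detection limit.

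Fpr2 was seen in some Gran-2 cells. It was detected in 0 of 14 Gran-1 cells (up to 21.4%), 3 of 15 Gran-2 cells (20%, interval 4.33% to 48.1%), 2 of 5 Myelo-1 cells, 11 of 18 Myelo-2 cells (61.1%, 35.7% to 82.7%) and 9 of 10 Myelo-4 cells (90%, 55.5% to 99.7%). Levels in the Myelo-4 cells were spread widely, at 0.00, 1.91, 4.90, 6.25, 6.99, 7.58, 8.55, 9.12, 11.04 and 12.21 on the log2(TPM + 1) scale. The mean was 5.10 ± 4.35 (SD) in Myelo-2 and 6.86 ± 3.81 in Myelo-4, a difference smaller than the spread of cells. The 3 Gran-2 cells with Fpr2 were CD11b+ GMP-P cells, the highest at 7.52. Formyl peptide receptor genes form a family of similar copies. The division of reads shared between copies was left to RSEM, named in the submitters' processing notes, and cannot be checked from TPM. The level of Fpr2 is uncertain in that respect. The relatives Fpr3, Fpr-rs3, Fpr-rs4 and Fpr-rs6 were listed at 0 in all cells.

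**Figure D2:**
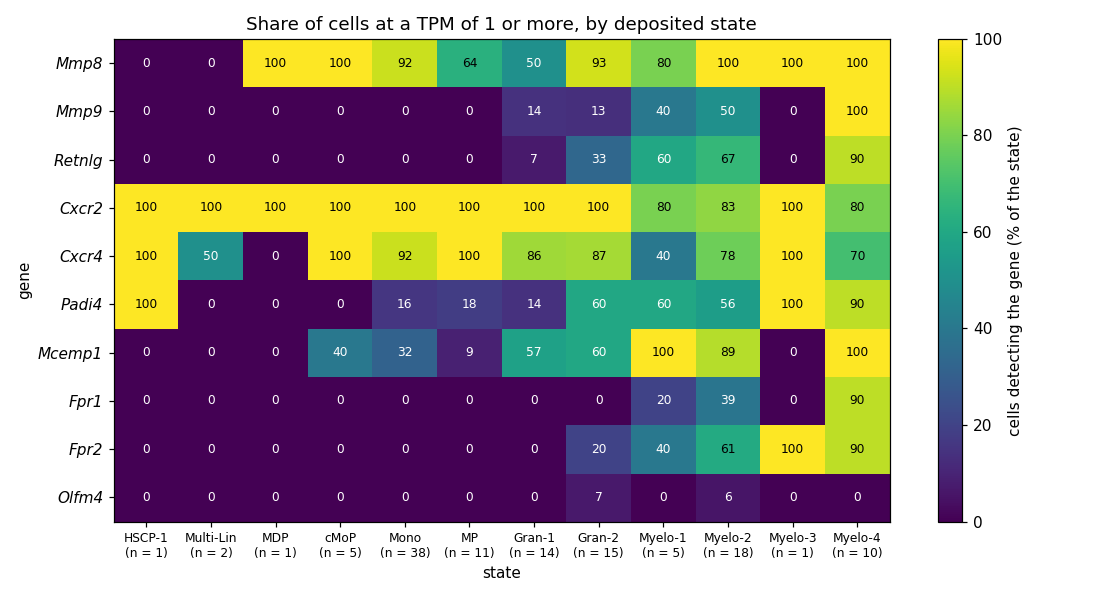
Heat map of the percent of cells detecting each gene (rows) at 1 TPM or more in each of the 12 deposited states (columns, with the number of cells), with colour and the printed whole percent giving the share. Mmp8 is at 93.3% in Gran-2, where Mmp9 is at 13.3% and Fpr1 at 0%, and Mmp9 and Fpr1 are at 100% and 90% in Myelo-4.

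The chemokine receptors differed from the other genes. Cxcr2, the marrow exit receptor, was detected in all 29 Gran cells (interval 88.1% to 100%) and 28 of 34 Myelo cells (82.4%, 65.5% to 93.2%). It was also detected in all 58 cells of the other states. Levels had a lowest, median and highest log2(TPM + 1) of 3.12, 5.56 and 6.63 in Gran-1, 2.07, 3.45 and 8.92 in Gran-2, 0.00, 1.55 and 9.86 in Myelo-2, then 0.00, 3.98 and 10.83 in Myelo-4. The pooled Gran-1 cells thus spanned less than the Myelo cells, of which 2 were near or above 10. The spread also differed by run. In Gran-1 the SD was 0.55 for 9 other GMP, 1.66 for 3 CD11b+ GMP-P and 1.33 for 2 late July GMP cells. In Myelo it was 1.24 for 10 late July GMP and 3.09 for 24 CD11b+ GMP-P cells. Of the Myelo-4 cells, 2 were at 0.00 and the highest, at 1819 TPM, had the highest Cxcr2 of all 121 cells. Means were 5.38 ± 1.08 (SD) in Gran-1, 4.11 ± 1.98 in Gran-2, 2.31 ± 2.20 for Myelo-2 and 4.01 ± 3.26 for Myelo-4, and each pair of neighbouring states overlapped.

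The level of Cxcr2 also differed by run within 1 state. Mono cells of CD11b+ GMP-P had a mean log2(TPM + 1) of 2.52 ± 0.74 (SD, n = 6 cells, range 1.69 to 3.40) and Mono cells of other GMP 5.84 ± 1.04 (n = 32, range 2.43 to 7.45). Gran-1 cells stood at 4.60 ± 1.66 for the 3 of CD11b+ GMP-P, 4.48 ± 1.33 for the 2 of late July GMP and 5.84 ± 0.55 for the 9 of other GMP. Both states were therefore higher in the undated run. For Mmp8 the Mono means of these runs (6.36 and 7.35) were closer than the spread of cells. In the Mono comparison population and run cannot be told apart. In Gran-1, late July GMP and other GMP share the label GMP and differ in run name. Only 2 cells were of late July GMP there, so a difference by run was not tested. The difference between Myelo and Gran is therefore also given within each population.

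Cxcr4, the marrow retention receptor, was detected in 12 of 14 Gran-1 cells (85.7%, interval 57.2% to 98.2%), 13 of 15 Gran-2 cells (86.7%, 59.5% to 98.3%), 2 of 5 Myelo-1 cells, 14 of 18 Myelo-2 cells (77.8%, 52.4% to 93.6%) and 7 of 10 Myelo-4 cells (70%, 34.8% to 93.3%). Mean log2(TPM + 1) levels were 3.26 ± 1.70, 4.15 ± 2.11, 1.36 ± 2.10, 2.61 ± 1.76 and 3.06 ± 3.02 (SD over cells) in that order. All these states overlapped. Mono cells had a mean of 4.24 ± 1.82 and the 5 cMoP cells 5.77 ± 0.80, above the mean of each Gran and Myelo state named here. Mono cells of the 2 runs did not differ beyond their spread, at 4.18 in CD11b+ GMP-P and 4.25 in other GMP.

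Set against Gran cells, Myelo cells had more of 7 of the 10 genes and less of both chemokine receptors in mean log2(TPM + 1). The difference of means, Myelo minus Gran, was 5.56 for Mmp8 (10.41 ± 2.73 against 4.85 ± 4.09), 4.61 for Fpr2 (5.05 ± 4.22 against 0.45 ± 1.49), 4.60 for Retnlg (5.44 ± 5.06 against 0.84 ± 2.14) and 4.27 for Mcemp1 (7.43 ± 3.21 against 3.16 ± 3.51). It was 4.13 for Fpr1 (4.16 ± 4.56 against 0.03 ± 0.12), 3.88 for Mmp9 (4.50 ± 4.38 against 0.62 ± 1.71) and 2.21 for Padi4 (3.76 ± 3.29 against 1.55 ± 2.36). Errors are SDs over 34 Myelo and 29 Gran cells, and the ranges of the groups overlapped for every gene. Cxcr2 differed by -1.71 and Cxcr4 by -1.14 on this scale, but as log2 ratios of mean TPM + 1 they differed by 0.86 and 0.07, the opposite sign. That ratio, which weights abundant cells, was positive for the other 7 in another order: 8.59 for Fpr1, 6.39 for Retnlg, 5.84 for Fpr2, 5.24 for Mmp9, 2.67 for Mmp8, 2.45 for Padi4 and 2.13 for Mcemp1. For Cxcr2 the mean was 95.5 TPM in Myelo and 52.1 TPM in Gran, with 4 Myelo cells and 1 Gran cell at 100 TPM or more. The highest of these cells alone held 1819 TPM.

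Genes reaching detection in 10% of the cells on either side were kept, which left 8984 genes and 9 of the 10 (Olfm4 was not kept). A difference of 1 or more was counted as higher or lower. By that count 7 of the 9 were higher and 2 lower, where 2.24% of all kept genes were higher and 45.6% lower. Over the 9 the median was 4.13, the value of Fpr1, which was detected in no Gran cell, so this median supports nothing. Over all kept genes the median was -0.89. The differences of Cxcr2 and Cxcr4 thus lay near the general shift of this table. Within CD11b+ GMP-P, 7 of 9 were higher and 1 (Cxcr4, -1.57) lower, where 2.57% and 42.5% of 8390 kept genes were. Within late July GMP, with 3 Gran and 10 Myelo cells, 7 of 9 were higher and 1 (Cxcr2, -3.04) lower, where 12.5% and 41.2% of 8577 kept genes were. Mmp8, Mmp9, Retnlg, Padi4, Mcemp1, Fpr1 and Fpr2 were the genes higher in both. Without the 3 cells of the run name with a year, a setting chosen after seeing the data, 4 of 9 were higher in late July GMP (Mmp8, Mcemp1, Fpr1 and Fpr2) and 1 lower, where 15.5% and 43.5% of 8128 kept genes were. Mmp9 (0.46), Retnlg (0.86) and Padi4 (0.84) then lay under the threshold. Fpr1 in each of these sets, and Mcemp1 and Fpr2 in late July GMP, were detected in no Gran cell and were kept through Myelo cells alone, so their counts support nothing. Since the states were named on these cells, these counts describe the annotation.

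The size of the difference varied between the populations. Within CD11b+ GMP-P it was 3.70 for Mmp8, 4.05 for Mmp9, 4.99 for Retnlg, 1.99 for Padi4, 3.81 for Mcemp1, 3.79 for Fpr1, 4.46 for Fpr2 and -0.78 for Cxcr2. Within late July GMP it was 7.20 for Mmp8, 2.06 for Mmp9, 1.45 for Retnlg, 1.61 for Padi4, 7.73 for Mcemp1, 4.92 for Fpr1, 4.38 for Fpr2 and -0.48 for Cxcr4. Mmp8 and Mcemp1 had the larger value in late July GMP, Mmp9 and Retnlg the larger in CD11b+ GMP-P. Only 3 Gran cells stand behind the late July values, and those of Mmp9, Retnlg and Padi4 rested on the 3 Myelo cells named above. Mmp8 in the 3 late July GMP Gran cells was at 0.00, 1.19 and 10.64.

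**Figure D3:**
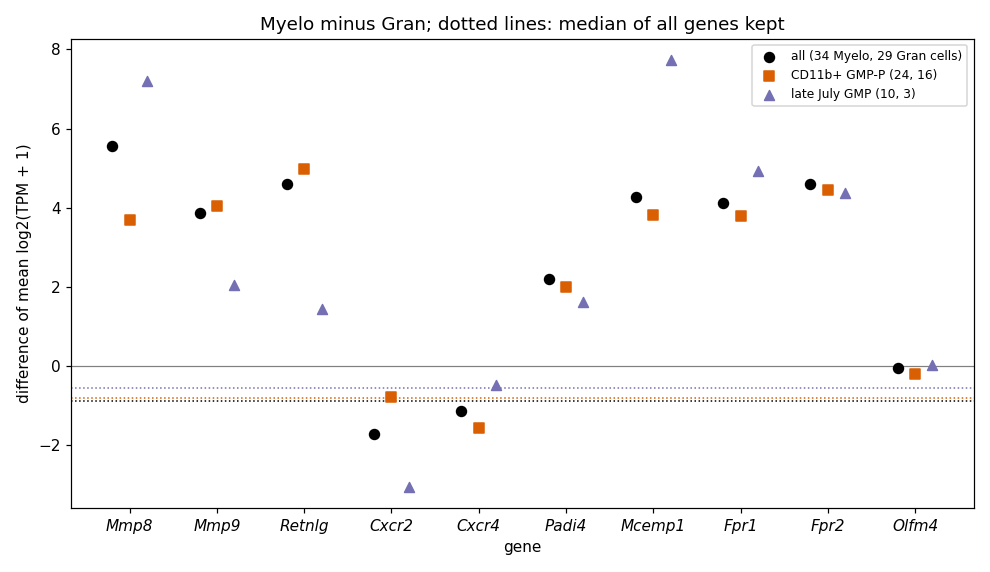
Difference of mean log2(TPM + 1), Myelo minus Gran (vertical axis), for each gene (horizontal axis) over all cells and within each population, with dotted lines at the median of all kept genes in each set (-0.89 over all cells) and no error bars, since each population is 1 sample. The 7 genes from Mmp8 (5.56) to Padi4 (2.21) lie above 0 in every set and Cxcr2 and Cxcr4 below it, a direction that turned to 0.86 and 0.07 as log2 ratios of mean TPM + 1.

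Compared pair by pair, the states differed in different genes. From Gran-1 to Gran-2, 2 of 8 kept genes were higher, Mmp8 by 5.54 and Padi4 by 1.85, and Cxcr2 was lower (-1.27), where 7.85% of 9268 kept genes were higher and 24.4% lower. Gran-1 held mostly other GMP cells (9 of 14) and Gran-2 mostly CD11b+ GMP-P cells (13 of 15). Within CD11b+ GMP-P, the 3 Gran-1 cells had Mmp8 levels of 0.19, 2.15 and 2.66, against a mean of 7.50 ± 3.56 (SD) in 13 Gran-2 cells. Padi4 stood at 0.00 against 2.03 and Cxcr2 at 4.60 against 3.65 in these cells, so the directions were those of the pooled step. At the next step, Gran-2 to Myelo-2, 6 of 9 were higher, from Fpr2 (4.29), Mcemp1 (3.97), Retnlg (3.65) and Mmp8 (3.39) to Fpr1 (2.94) and Mmp9 (2.54). Cxcr2 (-1.80) and Cxcr4 (-1.55) were lower and Padi4 (0.59) lay between, where 3.59% of 8534 kept genes were higher and 37.7% lower. Fpr1 was detected in no Gran-2 cell and was kept through Myelo-2 cells alone, so its count supports nothing. Within CD11b+ GMP-P this step gave 4.81 for Fpr2, 3.57 for Mcemp1, 4.97 for Retnlg, 3.51 for Mmp8, 3.14 for Fpr1, 3.68 for Mmp9, -1.66 for Cxcr2 and -1.72 for Cxcr4.

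The step from Myelo-2 to Myelo-4 carried the largest differences of Mmp9 (5.90) and Fpr1 (5.48). In all, 8 of 9 kept genes were higher in Myelo-4, where 5.4% of 7772 kept genes were higher and 25.2% lower. The others were Retnlg (3.08), Padi4 (2.40), Fpr2 (1.75), Cxcr2 (1.70), Mcemp1 (1.38) and Mmp8 (1.01), and Cxcr4 (0.45) lay between. The median over all kept genes was -0.43 and over the 9 it was 1.75. Within CD11b+ GMP-P, with 11 and 7 cells, Mmp9 differed by 4.97, Fpr1 by 4.52, Retnlg by 3.34, Padi4 by 3.28 and Mmp8 by 0.85. Myelo-4 cells had fewer detected genes than Myelo-2 cells (median 1685.5 against 2448.5), so more of the 10 genes were seen where fewer genes were seen in all.

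Myelo cells of the sorted populations were compared with each other within the late July runs. Late July GMP Myelo cells minus CD11b+ GMP-P Myelo cells gave 1.04 for Mmp8, 1.08 for Fpr1, -1.33 for Mmp9 and -1.99 for Retnlg, and the other 5 kept genes lay within 1 of 0. By count, 2 of 9 were higher where 14.7% of 8026 kept genes were, and 2 lower where 5.84% were. Each of the 4 differences was smaller than the SD over cells of CD11b+ GMP-P (3.11, 4.42, 4.55 and 5.37 for Mmp8, Fpr1, Mmp9 and Retnlg). Within Myelo-2 the differences were -0.26 for Mmp8, -0.56 for Fpr1, -2.99 for Mmp9 and -2.40 for Retnlg, so Mmp8 and Fpr1 turned sign. Within Myelo-4, with 3 and 7 cells, they were 0.19 for Mmp8, 2.47 for Fpr1, -0.78 for Mmp9 and -3.95 for Retnlg. Without the 3 cells of the run name with a year, the Myelo differences were 0.82 for Mmp8, 0.28 for Fpr1, -2.93 for Mmp9 and -2.59 for Retnlg, so Mmp8 and Fpr1 no longer passed the threshold. Fpr1 was detected in 50% of the Myelo cells of each population, 12 of 24 and 5 of 10.

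Counting the genes cell by cell gave the same order. Gran-1 cells detected a median of 3 of the 10 genes (range 2 to 5), Gran-2 cells 4 (3 to 8), Myelo-1 cells 5 (4 to 7), Myelo-2 cells 7 (3 to 9) and Myelo-4 cells 8 (7 to 9). Mono cells detected 3 (2 to 5). No cell detected all 10. The number of the 10 genes detected did not follow the number of all genes detected, with a Spearman rho across cells of -0.13 over 29 Gran cells, -0.21 over 34 Myelo cells and 0.25 over 18 Myelo-2 cells. These cells share libraries, so the rho values are a description.

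**Figure D4:**
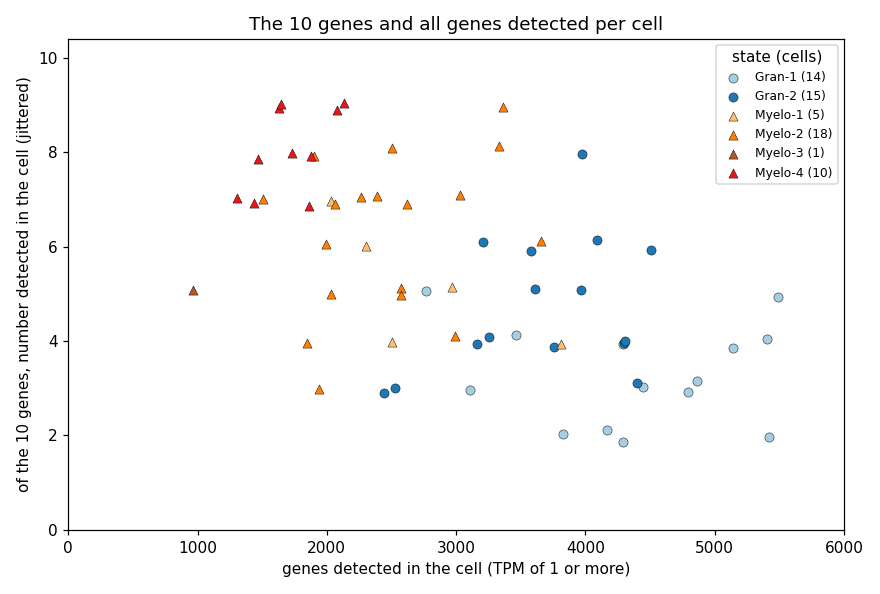
Number of the 10 genes detected in each Gran and Myelo cell (vertical axis, points shifted slightly to separate them) against the number of all genes detected in it (horizontal axis, 1 TPM or more), with 1 point per cell coloured by state. Myelo cells (triangles) lie to the left with a median of 7 of the genes and Gran cells (circles) further right with a median of 4.

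Mmp9, Retnlg, Fpr1 and Fpr2 were detected in none of the 58 cells of the other states and in most Myelo-4 cells, and they were grouped after these values were seen. At least 1 of the 4 was detected in 3 of 14 cells of Gran-1, 6 of 15 of Gran-2, 17 of 18 Myelo-2 cells and all 10 Myelo-4 cells. In all that was 9 of 29 Gran cells (31%, interval 15.3% to 50.8%) and 32 of 34 Myelo cells (94.1%, 80.3% to 99.3%). All 4 together were found in 0 of 29 Gran cells (up to 10.3%), 2 of 18 Myelo-2 cells (11.1%, 1.38% to 34.7%) and 7 of 10 Myelo-4 cells (70%, 34.8% to 93.3%). None of the 10 Gran cells of the other GMP run detected any of them, against 7 of 16 CD11b+ GMP-P Gran cells and 2 of 3 late July GMP Gran cells. Since the 4 genes were picked for these values, their high shares in Myelo-4 cells restate that choice. The choice also bears on the undated run, which held 52 of the 58 cells of the other states. In addition, 9 of its 10 Gran cells were in Gran-1. Whether Gran cells differ by run in these genes was therefore not tested.

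Over the 63 Gran and Myelo cells, 24 detected both metalloproteinases, 30 Mmp8 alone, 1 Mmp9 alone and 8 neither. Fpr1 was detected together with Mmp8 in 17 cells, with Mmp8 alone in 37. Mmp8 was detected in 54 of the 63 cells and in every Myelo-2 and Myelo-4 cell, so finding another gene beside it says little. Mmp9 and Retnlg were together in 20 cells, with Mmp9 alone in 5 and Retnlg alone in 10. Fpr1 and Fpr2 were together in 14 cells, with Fpr1 alone in 3 and Fpr2 alone in 12. Among the 18 Myelo-2 cells, Mmp9 and Retnlg were together in 7, alone in 2 and 5, and both missing in 4, so Myelo-2 held cells of every combination.

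Genes with the most similar pattern were ranked by Spearman correlation of log2(TPM + 1) over the same 63 cells, among 5628 genes detected in at least 20% of them, naming up to 3 with a rho of 0.5 or more. These cells share libraries and the contrast between Gran and Myelo, and the values are a description. Mmp8 was most like Ltf (0.80), Ngp (0.80) and Ifitm6 (0.79), of which Ltf (lactoferrin) and Ngp are secondary granule proteins. Fpr1 was most like Mmp8 (0.73), Mxd1 (0.73) and Lgals3 (0.72), and Fpr2 most like Ltf (0.72), Ifitm6 (0.69) and Lcn2 (0.69). Mmp9 was most like Thbs1 (0.77), Slfn1 (0.67) and Retnlg (0.65), and Retnlg most like Gp49a (0.69), Mmp9 (0.65) and Ifitm6 (0.65). Mcemp1 had Gp49a (0.60), 1100001G20Rik (0.60) and S100a8 (0.59), and Padi4 had Pglyrp1 (0.63), 4632428N05Rik (0.57) and Itgam (0.53). Cxcr2 had a different company, Casc4 (0.73), Pbld1 (0.72) and Synrg (0.70), whose own means were lower in Myelo than in Gran cells (3.10 against 5.38 for Casc4). No gene reached 0.5 for Cxcr4 or Olfm4.

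Other genes of the same processes were followed in lists, by the difference of mean log2(TPM + 1), Myelo minus Gran. Of all kept genes, 2.24% were higher by 1 or more and 45.6% lower. Of 14 partners in secretory and gelatinase granules and their membranes, 11 were kept, and 6 were higher and 1 lower (median 1.19). They included Cd177, a neutrophil surface glycoprotein (7.33), Lyz2, lysozyme (7.08), Itgam (4.32) and Adam8 (1.29). Within CD11b+ GMP-P the median of this list was 0.40, with Cd177 at 4.85 and Itgam, the gene of the sort marker, at 3.04. Of 10 other chemoattractant receptors 5 were kept, 3 were higher and none lower, with a median of 1.08 (0.50 within CD11b+ GMP-P). C5ar1, the receptor for complement C5a, had a mean of 5.46 in Myelo and 0.45 in Gran cells. Ccr1 differed by 2.54, the leukotriene B4 receptor Ltb4r1 by 1.08 and Ccrl2 by 0.75. Within CD11b+ GMP-P 2 of the 5 were higher, with Ltb4r1 at 0.50 and Ccrl2 at -0.18. Cxcr1, the close relative of Cxcr2, was listed at 0 in all cells. Adam8 and Mmp25 of the granule partners (detected in 3.45% and 6.9% of Gran cells) and C5ar1 (6.9%) were kept through Myelo cells alone. Their counts as higher therefore support nothing.

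Ligands for the receptors gave 3 kept genes of 8. Cxcl2, a ligand of Cxcr2, differed by 2.74, Anxa1, a ligand of formyl peptide receptors, by 0.99, and Mif by -5.13. Anxa1 was detected in all 29 Gran and 34 Myelo cells, while Cxcl12, the ligand of Cxcr4, was listed at 0 in all cells. Of 24 relatives and inhibitors of the 10 genes, 3 were kept and none differed by 1 or more: Padi2 (-0.47), Mmp19 (-0.42) and the protease inhibitor Reck (0.10). Timp1, an inhibitor of gelatinase B, and the resistin relatives Retn, Retnla and Retnlb were listed at 0 in all cells. Of 27 other late neutrophil genes, 26 were measured, 22 kept, 10 higher and 3 lower, the median being 0.55 (0.60 within CD11b+ GMP-P). The largest were Ifitm6 (7.71), Itgb2l (4.45), Lrg1 (3.57) and Mxd1 (3.53). Among those higher, Ly6g (3.45% of Gran cells), Il1r2, Stfa1 and BC100530 (0%) were kept through Myelo cells alone. Their counts support nothing.

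Genes of the earlier granules differed in opposite directions. All 8 primary granule genes were kept and 7 were lower, with a median of -4.75 (-4.53 within CD11b+ GMP-P). They were led by Ctsg (-7.01), Mpo (-5.57), Prtn3 (-5.16) and Elane (-4.97). All 7 secondary granule genes were higher, with a median of 4.90, led by Ngp (9.61), Ltf (9.59), Camp (8.20) and Chil3 (4.90), while within CD11b+ GMP-P 6 were higher, 1 was lower and the median was 2.01. Of 12 cell cycle genes 10 were lower and none higher, with a median of -2.34 (-2.70 within CD11b+ GMP-P), among them Mcm3 (-5.04), Mcm7 (-3.89), Mcm5 (-3.76) and Rrm2 (-3.40). The median of the 9 kept genes was 4.13 beside these lists, and 3.79 within CD11b+ GMP-P. Both are the values of Fpr1, detected in no Gran cell, so they support nothing.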

How the data were processed

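Single-cell RNA sequencing of 121 cells was used. The authors' deposited table holds log2 values. Their back-transformed sums of 999517 to 1001449 per cell are those of log2(TPM + 1), and 81.7% of values were 0. Other values, a state name for each cell, come from a second table deposited by the authors. Per the submitters' processing notes, Bowtie2 and RSEM were used with build mm9; their versions: not given in the sources used here. TPM keeps no read number, so depth per cell is unknown and a 0 can be a missed transcript.

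Cells were grouped by the labelled population, run name and deposited state. All 10 genes are named, as are up to 3 genes most like each (rho of 0.5 or more, genes in 20% of cells) and up to 4 kept genes per list with the largest absolute difference. The genes and lists were chosen with earlier results of these data known. Means, shares and differences were computed with a pseudocount of 1 TPM, detection at 1 TPM, a filter of 10% of cells and a threshold of 1. Python 3.11.15, numpy 2.4.6, pandas 2.3.3 and scipy 1.17.1 were used, and the difference script was tested on simulated data. That simulation modelled no missed transcripts and had less spread than most of the 10 genes. It therefore checked the calculation only. Alternatives varied detection, pseudocount, scaling, filter, populations, cells and weighting. A difference of mean logs understates low genes. To look for shared cells, same-numbered cells of different runs were compared: 16 pairs had a rank correlation of 0.30 to 0.46, and 612 pairs with different numbers 0.27 to 0.49.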

Additional observations from a re-analysis of the deposited data

How the results depend on the processing

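The count of 7 genes higher in Myelo than in Gran cells was the same under 12 of 13 alternatives, of which 3 (both detection thresholds and no filter) cannot move the differences. It includes Fpr1, which no Gran cell detected at 1 TPM. In late July GMP the same holds for Mcemp1 and Fpr2. The part of these genes in the counts supports nothing. The count was 4 in late July GMP cells of the run name without a year, where 26.2% of genes past the threshold were higher (1258 higher, 3538 lower). That setting and the cells with 2000 to 4000 detected genes were chosen after seeing the data. The median number of the 10 genes detected per Myelo cell was 7, and 5 with detection at 10 TPM or more. In Gran cells it was 4 and ranged from 3 to 4. As log2 ratios of mean TPM + 1, the Myelo minus Gran difference was 0.86 for Cxcr2 and 0.07 for Cxcr4, against -1.71 and -1.14. With only Myelo-2 cells, late July GMP minus CD11b+ GMP-P was -0.26 for Mmp8 and -0.56 for Fpr1, against 1.04 and 1.08, and with only Myelo-4 cells 0.19 and 2.47. The cause was not tested. Of all genes past the threshold, 4.68% were higher (201 higher, 4097 lower), against 16.2% as ratios of mean TPM (900 and 4670), 23.3% in late July GMP alone (1075 and 3532) and 16.3% in cells with 2000 to 4000 detected genes (472 and 2416). Over the alternatives the difference ranged from 2.67 to 7.20 for Mmp8, 0.46 to 5.28 for Mmp9, 0.86 to 6.39 for Retnlg, 0.84 to 3.24 for Padi4, 2.13 to 7.73 for Mcemp1, 2.56 to 8.59 for Fpr1 and 2.80 to 6.43 for Fpr2. No paired analysis was possible because each population is 1 sample and no animal is named.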

Other observations

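The evenness of Cxcr2 in the undated GMP run stood apart from that of other genes at its level. In the 62 other GMP cells it was detected in every cell, with a mean log2(TPM + 1) of 5.66 and an SD over cells of 1.16. Among 211 genes with a mean within 0.25 of it, 5 (2.37%) had a smaller SD, the median SD was 2.84, and 14 were detected in all cells. Mmp8, at nearly the same mean (5.63), had an SD of 3.41 and was detected in 48 of the cells. The 3 genes most like Cxcr2 across Gran and Myelo cells were as even in that run: Casc4 had a mean of 6.26 and an SD of 0.84, Pbld1 6.76 and 0.90, and Synrg 3.98 and 1.02, each with 1 gene of smaller SD among those near its mean. All 3 were detected in all 62 cells. Cxcr4 (4.08, SD 1.79) had 17 of 391 genes (4.35%) with a smaller SD. These values were looked at after the similarity ranking was seen.

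Nkg7, a gene of natural killer and T cells, made up the whole of the T and NK marker signal, with Cd3e, Cd3g and Klrb1c at 0. Its median was 3615 TPM in Gran, 111 TPM in Myelo and 2505 TPM in Mono cells.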
